A study of Danio rerio with 6 samples.

Results

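The open chromatin regions described here lie in the outermost 1 Mb at either end of a zebrafish chromosome. They were found from the deposited ATAC-seq peak lists of 6 samples: overlapping peaks of different lists, by 1 base or more, counted as a single region, which gave 85003 regions, and a region was taken when it lay wholly within the first or the last 1 Mb of chromosomes 1 to 25 with chromosome 4 left out. This gave 4936 end regions among 80043 on the 24 chromosomes (6.17%), in 48 end windows that hold 3.79% of their length. The rule used position alone. The files give no chromosome lengths, so a chromosome was taken to start at base 1 and to stop at the last base of its last peak, on the GRCz11 assembly that the files use.

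The samples were pools of AB wild type zebrafish embryos at 50% epiboly (5.5 hours post-fertilization), freed of chorion and yolk before the assay. Of the pools, 3 were exposed to 5 µM PF-06726304 acetate (Ezh2i), an inhibitor of Ezh2, and 3 to the solvent, DMSO at 0.05% (control). Exposure began around the 2-cell stage, 150 embryos were used for each exposure, and the exposures were made in triplicate. A pool mixes cell types of the embryo at that stage, so a region open in few cells and one open weakly in many cells cannot be told apart. The lists rest on 5894731 to 6877909 fragments per sample and hold 48291 to 57178 peaks. List length did not follow depth: control 3 had the most fragments and the shortest list.

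In ATAC-seq, the Tn5 transposase cuts and tags DNA that is not wrapped on nucleosomes, and sequence tagged often piles up as a peak. Vertebrate chromosomes end in telomeric repeats bound by protective protein complexes, and the adjoining subtelomeric DNA is in many species rich in repeats and in duplicated sequence. Ezh2 is the catalytic subunit of Polycomb repressive complex 2, which methylates lysine 27 of histone H3 at developmental genes that are kept silent, and 50% epiboly is the stage at which gastrulation begins in zebrafish. The comparison of exposures asks where chromatin opens or closes when this activity is inhibited in the early embryo.

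Peaks were denser near chromosome ends than elsewhere in every sample. The end windows held 64.2, 63.1 and 58.4 peaks per Mb in controls 1 to 3 and 71.2, 64.2 and 73.6 in Ezh2i 1 to 3. On the rest of the same chromosomes, 1219 Mb in all, the densities were 36.5, 37.9 and 35.2 in the controls and 41.3, 36.1 and 41.4 in the Ezh2i samples. The end windows were thus 1.66 to 1.78 times as dense in each of the 6 samples, with no overlap between the end values and the rest. The log2 ratio of end to rest was 0.79 ± 0.046 (SD, n = 6), a 1.73-fold higher density (two-sided exact sign-flip permutation test, p = 0.03125, the smallest 6 samples can give; adjusted over 5 such tests, 0.0391). All 6 samples share one genome, so this p measures the spread between libraries and not the spread between chromosomes. The same holds for the sign-flip tests of height, local background and length below.

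The same samples placed 6.13% to 6.55% of their peaks in the end windows. Neighbouring peaks stood closer together there: the median gap was 7500.5 to 9340 bases in the end windows and 12361 to 14082 bases in the rest, 0.642 times as wide. Peaks covered 0.909% to 1.19% of the bases of the end windows and 0.530% to 0.653% of the rest.

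The excess was steepest at the very edge and fell off inward, as the plot of density by distance shows. Within 50 kb of an edge the 6 samples held 100.1 peaks per Mb on average (93.6 ± 2.96 in controls and 106.5 ± 8.54 in Ezh2i, SD, n = 3 each). The mean was 93.7 from 50 to 100 kb, 78.2 from 100 to 200 kb and 66.9 from 400 to 500 kb. It was 50.3 in the last 100 kb inside the 1 Mb limit and 47.5 in the 500 kb just outside it. The limit therefore cuts through a slope, and no step in density stands at 1 Mb. From 3 Mb inward the means stayed between 35.1 and 39.9, with no further decline toward the chromosome middle. On the right-hand ends the edge is the last peak itself, which places a peak at distance 0 by construction. On the left ends alone, a comparison added after the data were seen, the log2 density ratio was 0.78.

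**Figure D1:**
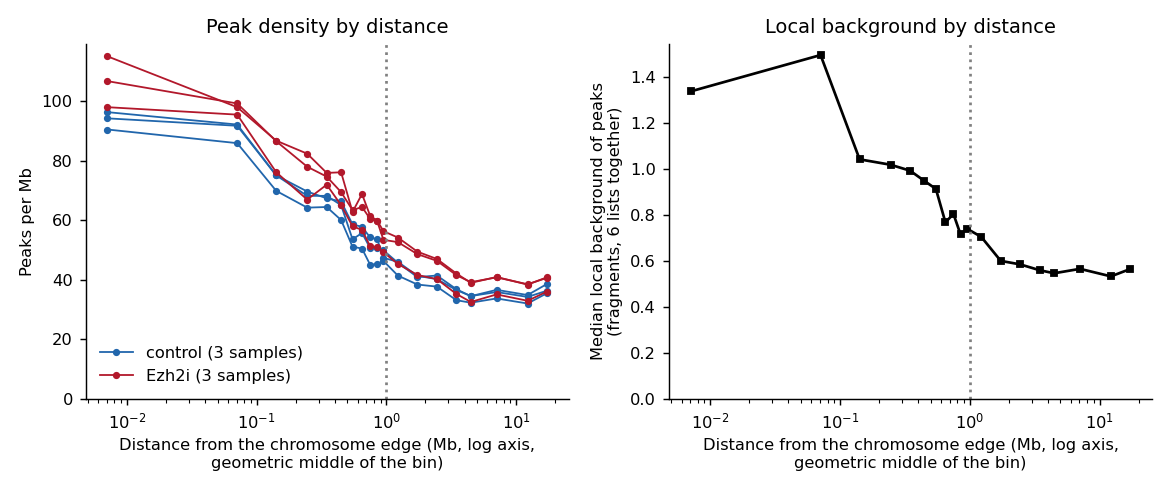
Peaks per Mb (left, 1 line per sample, controls in blue and Ezh2i in red) and the median local background of the peaks in fragments (right, 6 lists together) against distance from the nearer chromosome edge on a log axis; the dotted line marks 1 Mb. Density falls from a mean of 100.1 peaks per Mb in the first 50 kb to 50.3 just inside the limit. The background is 1.34 fragments in the first 50 kb, highest from 50 to 100 kb and 0.740 just inside the limit.

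The outermost region of each chromosome was itself often weak, though not far from end regions at large. Its median height was 10.7 fragments at left edges and 12.3 at right edges, against 14.0 over all 4936 end regions. Of all end regions, 38.5% had a peak in all 6 lists and 24.6% in 1. On the 24 left edges the first region began 2 to 36294 bases from base 1 (median 2799.5). Of these first regions, 7 had a peak in all 6 lists and 8 in a single list, with mean heights of 5.67 to 101 fragments. On the right edges 9 of 24 last regions had a peak in all 6 lists and 7 in a single list, so several right edges were set by 1 peak of 1 sample.

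The excess was spread over nearly all chromosome ends. Of the 48 end windows, 46 were denser than the rest of their own chromosome in all 6 samples. The exceptions were the left end of chromosome 3, with 37, 40 and 46 peaks per Mb in controls and 50, 47 and 58 in Ezh2i against a rest mean of 41.6, and the left end of chromosome 15, above its rest in 5 of 6 samples. The ratio of an end to its chromosome's rest ran from 1.11 to 2.74 with a median of 1.68. Densities of single ends ranged from 42.3 to 93.3 peaks per Mb (mean 65.8 ± 14.3, SD over 48 ends). The means of the rests of the 24 chromosomes ran from 32.8 to 41.6 (SD 2.35). An end is a single 1 Mb window and a rest is a mean over many Mb, which narrows its spread. The SDs are therefore not comparable, and whether ends vary more than other 1 Mb windows was not tested. Left and right ends were alike on average, at 65.5 ± 15.7 and 66.1 ± 13.1, and the right end was the denser at 14 of 24 chromosomes. The density of a chromosome's left end said little about that of its right end (Pearson r = -0.25 over 24 chromosomes, a description).

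The densest end was the left end of chromosome 22, with 91, 87 and 84 peaks per Mb in controls 1 to 3 and 99, 103 and 96 in Ezh2i 1 to 3. Its rest stood at 37.1, so it was 2.52 times as dense. It held 136 regions, and the 62 found in all 6 lists had a median height of 37.5 fragments. The left end of chromosome 19 followed with 92, 90 and 82 in controls and 104, 90 and 96 in Ezh2i (2.29-fold). The right end of chromosome 12 had 86, 90 and 85 in controls and 94, 85 and 99 in Ezh2i, and the largest ratio of the 48 ends at 2.74. These 3 ends overlap one another from sample to sample, so their order is not fixed by these data.

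At the other extreme, the right end of chromosome 9 had 42, 38 and 35 peaks per Mb in controls and 48, 39 and 52 in Ezh2i, 1.17 times its rest. The left end of chromosome 24 had 48, 39 and 40 in controls and 47, 41 and 47 in Ezh2i (1.22-fold). The left end of chromosome 15 had 44, 38 and 46 in controls and 39, 49 and 47 in Ezh2i (1.18-fold). In every sample each of the 3 sparsest ends lay far below each of the 3 densest.

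Which ends were dense and which were sparse was shared among samples. Pearson's r of density over the 48 ends was 0.882 to 0.958 for the 15 pairs of samples and 0.972 between the control mean and the Ezh2i mean. The points are the same windows of one genome in libraries of like depth, so the values describe how repeatable the map is. Denser ends had higher local background (r = 0.578 over 48 ends) and, less closely, taller peaks (r = 0.377).

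**Figure D2:**
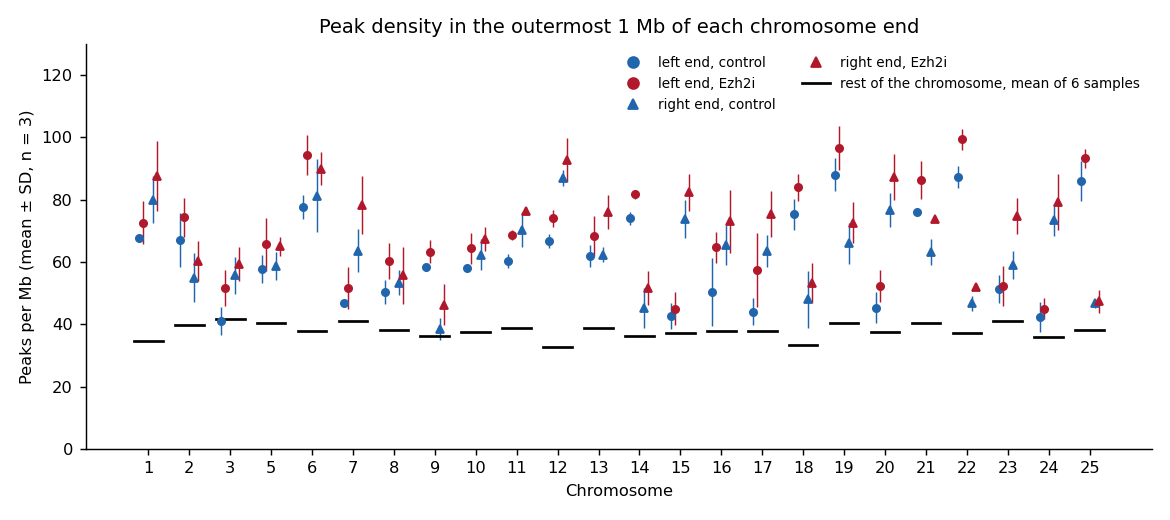
Peaks per Mb in the outermost 1 Mb of each chromosome end (mean ± SD, n = 3), left ends as circles and right ends as triangles, controls in blue and Ezh2i in red; black bars give the rest of the same chromosome, mean of 6 samples. Ends range from 42.3 to 93.3 as means of 6 samples. The black bars lie between 32.8 and 41.6, each a mean over many Mb and not over a single 1 Mb window.

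End peaks were also taller, and the local background the caller set for them was higher. Height is the pileup at the summit, the number of fragments that cover it. Over regions found in all 6 lists, the mean log2 height in the ends was 4.88, 4.95 and 4.78 in controls 1 to 3 and 5.07, 4.91 and 5.09 in Ezh2i 1 to 3. In the rest it was 4.66, 4.71 and 4.56, then 4.80, 4.66 and 4.84. The ends exceeded the rest within each sample by 0.24 ± 0.018 on the log2 scale (SD, n = 6), or 1.18-fold (exact sign-flip permutation test, p = 0.03125).

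The local background is the number of fragments the peak caller took as the level around a peak, worked back from the deposited height and fold enrichment. No control library was used, so that level comes from the sample's own fragments, and tall or closely spaced peaks can add to it. The median local background was 0.852 to 0.999 fragments for end peaks and 0.537 to 0.607 for the rest, a log2 ratio of 0.73 ± 0.045 (1.66-fold, exact sign-flip permutation test, p = 0.03125). It was 1.34 fragments in the first 50 kb, 0.740 in the last 100 kb of the window and 0.546 at 4 to 5 Mb. The fall was not steady: the background was highest from 50 to 100 kb, where density was already lower than at the edge. Measured over this background, end peaks did not stand out: median fold enrichment was 9.32 to 9.66 in the ends and 9.39 to 10.1 in the rest, lower in the ends in 6 of 6 samples. With fold enrichment in place of height, the mean log2 difference was -0.039, against 0.24 with height. The caller's own scale therefore removes the greater height of end peaks and turns its sign. How far end peaks and their close neighbours raised this background themselves was not tested. Whether the number of peaks called also moved with the background was not tested beyond leaving out the 1% of peaks with the highest background, which kept the density ratio past its threshold.

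**Figure D3:**
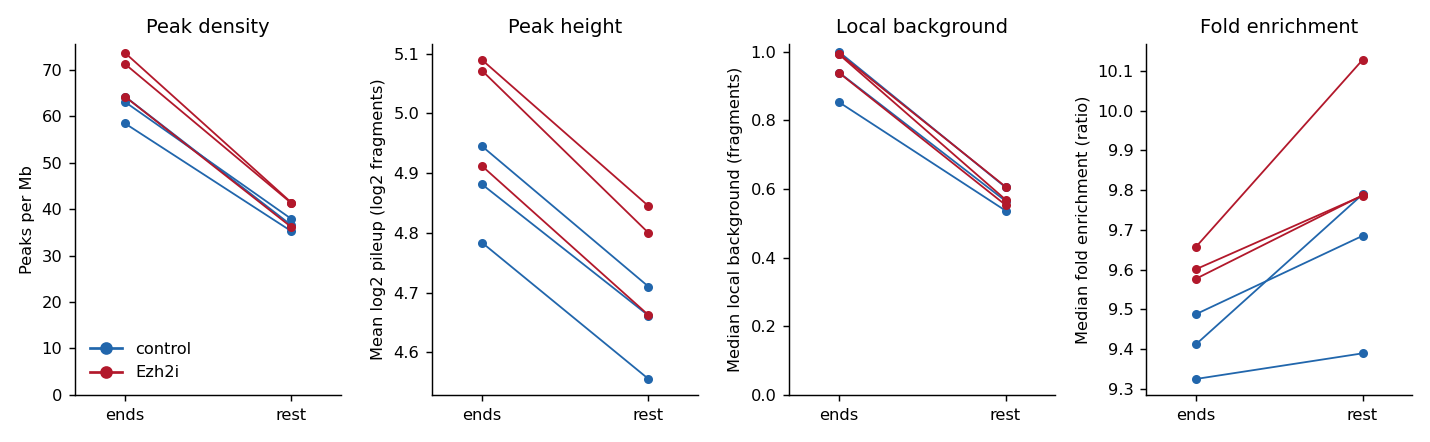
Peaks per Mb, mean log2 height in regions found in all 6 lists, median local background in fragments and median fold enrichment, each for the end windows and for the rest of the 24 chromosomes; 1 line per sample, controls in blue and Ezh2i in red, with the height and fold enrichment axes not starting at 0. The first 3 measures fall from ends to rest in 6 of 6 samples, and fold enrichment rises in 6 of 6.

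End peaks were of nearly the same median length as other peaks. Somewhat more of them recurred in all samples, though not within 50 kb of an edge. Median peak length was 135 to 142 bases in the ends and 132 to 138 in the rest (log2 ratio 0.03 ± 0.026, higher in 5 of 6 samples, exact sign-flip permutation test, p = 0.0938). Peaks of at least 500 bases were few, at 0.227% to 0.790% of end peaks and 0.179% to 0.270% of the rest, and such regions made up 1.05% of end regions and 0.471% of the rest. Of the 4936 end regions, 1899 (38.5%) had a peak in all 6 lists and 1216 (24.6%) in 1 list, against 35.5% and 25.9% of the 75107 regions elsewhere. Counted by peaks, 55.3% to 69.1% of end peaks fell in regions found in all 6 lists, 3.53 ± 2.00 percentage points more than in the rest (SD, n = 6, exact sign-flip permutation test, p = 0.03125). The excess was 4.81 ± 2.16 points in controls and 2.24 ± 0.568 in Ezh2i (SD, n = 3 each, exact permutation test, p = 0.2). These regions are the same for each sample, so the shares differ mainly through the number of other peaks in each list. The 6 values are therefore not independent, and neither p measures how recurrence varies between samples. Among the distance steps, recurrence was lowest at the edge itself, by a small margin. Within 50 kb, 56.3% of the peaks of the 6 lists together fell in regions found in all 6. The share was 67.7% from 50 to 100 kb, 56.9% from 1500 to 2000 kb, and 57.3% to 59.6% in the distance steps from 2 Mb inward. Regions in all 6 lists were tall, with a median height of 29 fragments in the ends, and those of 1 list low, with 9.

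Very tall regions made up a larger share of the regions near ends than of those elsewhere. A mean height of at least 100 fragments was reached by 119 end regions (2.41%) and by 791 regions of the rest (1.05%). At 200 fragments or more the counts were 9 (0.182%) and 18 (0.0240%). A local background above 4.10 fragments, the highest 1% of regions, was found at 136 end regions (2.76%) and at 0.885% of the rest.

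The tallest end regions lay in one cluster at the left end of chromosome 7. The region at bases 5671 to 5890 (220 bases) had 411, 501 and 372 fragments in controls 1 to 3 and 487, 285 and 350 in Ezh2i 1 to 3. Its neighbour at bases 7607 to 7802 had 445, 450 and 333 in controls and 419, 275 and 302 in Ezh2i. The next, at bases 7981 to 8165 had 377, 373 and 218 in controls and 354, 189 and 232 in Ezh2i. In all 3 the exposures overlapped, with controls 1 and 2 and Ezh2i 1 high and Ezh2i 2 lowest.

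The outermost 12000 bases of that end, a stretch chosen after its values were seen, held 10 regions, of which 7 had a peak in all 6 lists. The group of high and low samples was nearly the same along the cluster, as the plot of chromosome 7 shows: a peak at bases 5182 to 5269 was called only in controls 1 and 2 and Ezh2i 1, with 73, 86 and 76 fragments. Background was high throughout, at 9.03 to 19.2 fragments from base 5182 inward, and the 3 regions of highest background at any end were here (bases 5182 to 5269, 5671 to 5890 and 6387 to 6655, means 17.6, 14.2 and 14.2). The last of these had 123, 192 and 100 fragments in controls and 189, 85 and 97 in Ezh2i. The window as a whole was sparse, with 47, 46 and 47 peaks per Mb in controls and 56, 44 and 55 in Ezh2i.

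**Figure D4:**
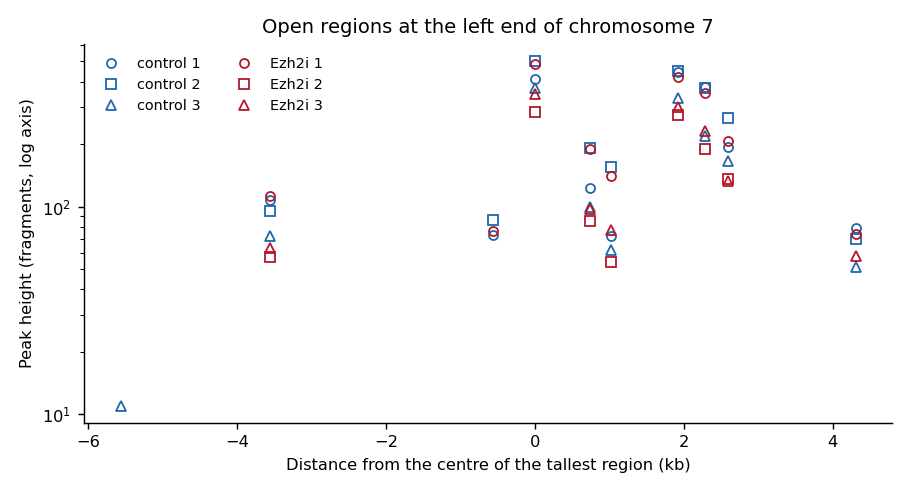
Height in fragments (log axis) of the regions in the outermost 12000 bases of the left end of chromosome 7, against distance in kb from the centre of the tallest region; symbols mark replicates, controls in blue and Ezh2i in red. Controls and Ezh2i are mixed at each region found in all 6 lists, and control 2 and Ezh2i 1 stand above Ezh2i 2 and Ezh2i 3 at each.

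The other 3 of the 6 tallest end regions rose from lower backgrounds than the 3 at chromosome 7, at 2.14 to 5.98 fragments. At chromosome 5, bases 826414 to 826666, the peaks reached 380, 277 and 256 fragments in controls and 273, 199 and 262 in Ezh2i over a background of 2.14. At chromosome 17, bases 53383514 to 53383783, 56654 bases from the right edge, they were 235, 310 and 348 in controls and 198, 302 and 211 in Ezh2i over 5.98. At chromosome 23, bases 45769845 to 45770126, they were 269, 265 and 229 in controls and 242, 201 and 252 in Ezh2i over 4.68. None of these 3 separated the exposures, and the last 2 backgrounds are among the highest 1% of regions.

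Regions found in all 6 lists that lay at the very edge differed widely in height. Of the 9 such regions at a right edge, all at distance 0, the 3 with the lowest chromosome numbers are given. The last region of chromosome 3, bases 62628377 to 62628487, had 145, 138 and 153 fragments in controls and 163, 152 and 140 in Ezh2i over a background of 1.23. The last region of chromosome 6, bases 60267825 to 60267994, had 17, 12 and 11 in controls and 10, 13 and 13 in Ezh2i. The last region of chromosome 7, bases 74280973 to 74281180, had 10, 12 and 10 in controls and 8, 11 and 13 in Ezh2i. Strong and weak peaks were both found at the edge, and in each of the 3 the exposures overlapped.

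Length and height did not go together at the extremes. The longest end region, at chromosome 14, bases 14032 to 15002 (971 bases), had 28, 36 and 31 fragments in controls and 33, 43 and 30 in Ezh2i. The second, at chromosome 22, bases 685892 to 686741 (850 bases), had 13, 11 and 16 in controls and 14, 22 and 19 in Ezh2i. The third, at chromosome 13, bases 52172186 to 52172987 (802 bases), had 23, 23 and 21 in controls and 35, 28 and 29 in Ezh2i. In this last region all Ezh2i values lay above all control values (22.3 ± 1.15 and 30.7 ± 3.79, SD, n = 3 each), but 3 against 3 samples cannot reach an exact permutation p below 0.1.

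For the exposures, the question was whether inhibition of Ezh2 changed openness near chromosome ends. Ezh2i samples had more peaks near ends, 69.7 ± 4.89 against 61.9 ± 3.06 per Mb in controls (SD, n = 3 each, 12.6% higher, exact permutation test, p = 0.2). They also had more in the rest, 39.6 ± 3.01 against 36.5 ± 1.32 (8.35% higher, exact permutation test, p = 0.3). Ezh2i 2, with 64.2 peaks per Mb in the ends, lay at the level of control 1 in both, so the higher means rested on Ezh2i 1 and 3, which also had the longest lists. Set against the rest of the same sample, the log2 density ratio was 0.82 ± 0.025 in Ezh2i and 0.76 ± 0.047 in controls (exact permutation test, p = 0.2). Against the neighbouring 1 to 2 Mb instead of the whole rest, the difference between exposures changed sign, from 0.06 to -0.029. No difference in end density particular to Ezh2i was therefore shown.

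The height excess of the ends over the rest was 0.26 ± 0.014 on the log2 scale in Ezh2i and 0.23 ± 0.0077 in controls. The groups did not overlap, and the exact permutation p was 0.1, the smallest that 3 against 3 can give (adjusted over 7 tests, 0.28). The sign turned against the neighbouring 1 to 2 Mb (-0.031) and when all peaks of each list were used (-0.0060). The difference between exposures shrank from 0.028 to 0.00092 with a 500 kb window and to 0.0057 with fold enrichment as height. With a 2 Mb window it was larger, at 0.0431 (exact permutation test, p = 0.1). Across single ends, the Ezh2i mean density was higher at 48 of 48, and all 3 Ezh2i samples lay above all 3 controls at 13 ends (27.1%) and below them at 0. Over all 1258 windows of 1 Mb on these chromosomes, a count added after the data were seen, the shares were 10.3% and 0.318%, and the Ezh2i mean was the higher in 82.6% of the 1210 windows of the rest. End windows hold more peaks each, and the Ezh2i lists are the longer on average; the part of either in these shares was not tested.

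Region by region, no end region passed the test of exposure. Heights of all 30071 regions found in all 6 lists were quantile-normalized on the log2 scale and compared with limma, and 0 of the 1899 end regions tested had a Benjamini-Hochberg adjusted p under 0.05 (0% over all regions tested, smallest adjusted p in the ends 0.746). By limma's unadjusted p under 0.05, 92 end regions (4.84%) were counted, against 6.24% of all regions. Of these, 67 were higher in Ezh2i and 25 lower, while all regions gave 3.19% higher and 3.05% lower. The median log2 difference of the end regions was 0.02, against -0.0012 over all regions, and the 1st and 99th percentiles of the end regions were -0.50 and 0.64. On this scale 0 end regions, and 11 of all 30071 (0.0366%), differed by more than 2-fold. The balance over all regions depends on the scaling, while the unadjusted counts in the ends leaned to Ezh2i under both. That lean lay mainly in a smaller share of end regions counted lower. On either scale, the share of end regions counted higher was little above that over all regions. With heights scaled to fragments per library, 134 end regions (7.06%) passed limma's unadjusted 0.05 against 6.66% of all regions. Of these, 128 were higher in Ezh2i and 6 lower, while all regions gave 5.84% higher and 0.825% lower. On the quantile-normalized scale the rest gave 829 higher and 836 lower, so the tilt was shared by all regions on the per-library scale alone. The median of all regions moved to 0.12 and that of the ends to 0.14, and 4 end regions (0.211%; 0.0998% of all) differed by more than 2-fold. On that scale all 3 Ezh2i heights lay above all 3 controls at 198 end regions (10.4%; 9.65% over all regions) and below at 18 (0.948%; 1.9% over all regions).

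**Figure D5:**
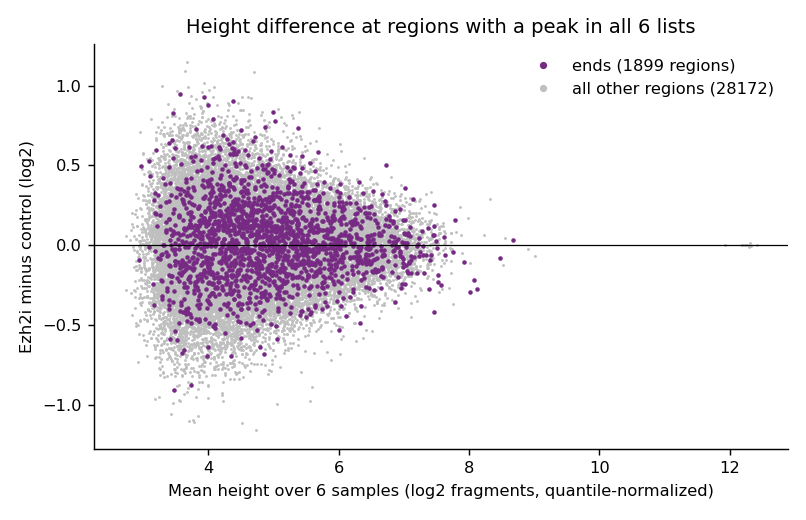
Quantile-normalized height difference, Ezh2i minus control on the log2 scale, against mean log2 height over the 6 samples, for the 30071 regions found in all 6 lists; end regions in purple and all others in grey. The 1899 end regions spread around 0 like the others, with a median of 0.02, and none reaches a 2-fold difference on this quantile-normalized scale.

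The end regions with the smallest unadjusted p were modest in height. At chromosome 8, bases 54186463 to 54186736, controls had 16, 16 and 12 fragments and Ezh2i samples 31, 27 and 32, a log2 difference of 0.90 (SE 0.18). At chromosome 14, bases 976550 to 977028, they were 10, 10 and 12 in controls and 22, 19 and 26 in Ezh2i (log2 0.93). At chromosome 10, bases 44581679 to 44581995, they were 11, 12 and 11 in controls and 21, 25 and 23 in Ezh2i (log2 0.88). All Ezh2i samples lay above all controls in these 3, yet limma's adjusted p was 0.746 for each.

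In the other direction, chromosome 11, bases 652889 to 653041, had 16, 20 and 16 fragments in controls and 12, 8 and 11 in Ezh2i, a log2 difference of -0.88 (SE 0.19). Chromosome 15, bases 47554889 to 47555061, had 12, 16 and 16 in controls and 7, 9 and 9 in Ezh2i (log2 -0.90). Chromosome 3, bases 62285017 to 62285216, had 33, 32 and 40 in controls and 27, 22 and 23 in Ezh2i (log2 -0.68). The groups did not overlap in these either, and limma's adjusted p was again 0.746. Each of the 6 kept its direction under the 14 or 15 alternatives that could be run on it, with limma's adjusted p values from 0.232 upward. The 6 were picked for their small p in these same data, so a kept direction adds no support.

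A peak list records nothing where no peak was called, so regions seen in one exposure only were counted apart. A peak in all 3 Ezh2i lists and in no control list was found at 51 end regions (1.03%; 0.817% of all regions on the 24 chromosomes). The reverse, a peak in all 3 controls and in no Ezh2i list, was found at 9 (0.182%; 0.34% of all). Ezh2i thus held 85% of the 60, against 69.6% of the 866 such regions in the rest. The longer lists were also cut down, by dropping their weakest peaks, to the size of the shortest. The counts were then 28 and 14 of 4441 end regions (66.7% Ezh2i), and 375 and 413 of 67674 in the rest (47.6%). The share held by Ezh2i thus fell in both once the lists were of equal length. It stayed higher in the ends, mainly because control-only regions were fewer there for their number of regions. Ezh2i-only regions were nearly as frequent in the rest as in the ends, and the 14 control-only regions are few. With only peaks of -log10 q of at least 10, the counts were 39 and 8 of 3226 end regions. In the rest they were 457 and 103 of 47838 (81.6% Ezh2i), so the ends and the rest held nearly the same share at that threshold. The 51 lay at 31 different chromosome ends, with mean heights of 7.33 to 26.7 fragments, and the 9 at 8 ends, with 8 to 13.3.

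When the test took in regions found in 3 or more lists and set each missing peak to 5 fragments, the lowest height in any list, limma called 14 of 3129 end regions at an adjusted p under 0.05 (0.447%; 0.232% of the 52189 regions tested). All 14 had a peak in the 3 Ezh2i lists and in no control list, so a difference was built in by the filter and by the value set for the missing peaks. The controls' true heights there are unknown. At the background seen in the Ezh2i lists, a pileup of 6 to 16 fragments would still have missed the controls' weakest listed p.

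The 14 were short regions, 112 to 246 bases long, with 13 to 34 fragments in Ezh2i. At chromosome 16, bases 54402472 to 54402596, the peaks reached 25, 25 and 21 fragments in Ezh2i 1 to 3, against a level of up to 13 that would have gone uncalled in controls. At chromosome 17, bases 117787 to 117926, they were 23, 21 and 20, with up to 14 uncalled. At chromosome 2, bases 27052 to 27163, they were 22, 33 and 23, with up to 15 uncalled. At chromosome 24, bases 42043564 to 42043692, they were 16, 15 and 14, with up to 6 uncalled. These 4 were picked after their values were seen, to show the range. Over the 14, the Ezh2i mean was 1.52 to 2.50 times the level worked out as uncalled in controls, under 2-fold at 11 and above it at 3. That level rests on p at the Ezh2i background alone. Control heights may have been higher where the controls' own background or another rule of the caller kept a peak off the list. The 14 passed the filter through their Ezh2i peaks alone, so these ratios do not measure a difference between exposures. The tallest end region of the reverse kind, at chromosome 11, bases 44622190 to 44622301, had 12, 13 and 15 fragments in controls 1 to 3.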

How the data were processed

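ATAC-seq was done on 3 control and 3 Ezh2i samples, and the authors deposited 1 peak list per sample, called with MACS2 2.1.1.20160309 on paired fragments without a control library (q 0.001, background window 10000 bases, GRCz11). Per the file headers, the lists hold for each peak the pileup at the summit (signal, in fragments), the fold enrichment (a ratio), and -log10 p and -log10 q. The study's methods state triplicate exposures. Replicate numbers come from the labels.

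Regions, edges and end windows were made as described above. Local background was taken as (pileup + 1) / fold enrichment - 1. It gave back the deposited -log10 p within 0.01 for 99.96% of peaks, so it is the caller's background and not a measured control. Ends and rest were compared over 6 samples by two-sided exact sign-flip permutation, and exposures by two-sided exact permutation of 3 against 3. Heights were tested with limma 3.58.1 in R 4.3.3 on all regions with a peak in all 6 lists, and the scripts were tested on simulated data. Counting per region from reads, as in the study, could not be repeated from peak lists. Chromosome 4 and unplaced sequence were left out by the rule.

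Regions were named by rule: the 6 tallest, the 3 nearest an edge (ties taken by chromosome number), the 3 longest, the 3 of highest background, the 3 of smallest p in each direction, and the 3 densest and 3 sparsest ends. Regions called with a peak in at least 3 lists and the chromosome 7 cluster were chosen after their values were seen. The end windows, the members and the rules were chosen with earlier results of these data known. No GRCz11 genome or gene annotation was used here, so no gene or sequence is given.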

Additional observations from a re-analysis of the deposited data

How the results depend on the processing

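Under the alternatives other than leaving out a sample, the log2 ratios of end to rest ran from 0.54 to 1.00 for density and from 0.52 to 0.91 for local background, and the difference in the share of peaks found in all 6 lists from 2.03 to 4.43 percentage points. The difference in height turned to -0.039 with fold enrichment as height. The difference in length passed its threshold with a 500 kb window (log2 0.0349, exact sign-flip permutation test, p = 0.03125, the smallest 6 samples can give). Between exposures, the difference in density ratio was 0.0723 and that in height 0.0431 with a 2 Mb window. Against the neighbouring 1 to 2 Mb they turned to -0.029 and -0.031, and the height difference turned to -0.0060 with all peaks of each list. The cause was not tested. End regions seen in one exposure alone numbered 32 in 500 kb windows and 103 in 2 Mb windows, against 60. Calls by limma numbered 14 with peaks in at least 3 lists and 0 under the other alternatives run.

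Leaving out each sample in turn gave log2 density ratios of 0.78 to 0.80, height differences of 0.235 to 0.246, background ratios of 0.720 to 0.747 and shares of 2.99 to 3.86 points, and 5 samples cannot give a p below 0.0625. Differences between exposures ran from 0.0411 to 0.0833 for density and from 0.0195 to 0.0330 for height, and limma called 0 regions each time. Same-numbered samples did not deviate together (r = 0.0984, -0.029 and -0.1178), so the numbers were not taken as pairs. With the replicate number as a block, limma called 0 end regions (smallest adjusted p 0.795). Depth limits single regions, since the median end region had a mean height of 14.0 fragments.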
